A study of Mus musculus with 4 samples.

Results

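Binding of SMAD4 was described at 6 genes that encode basic helix-loop-helix transcription factors: Bhlhe40, Bhlhe41, Mitf, Tfeb, Tfec and Tcf4. SMAD4 had been profiled by HT-ChIPmentation, a form of ChIP in which Tn5 transposase puts sequencing adapters into chromatin still held on the beads. The cells were alveolar macrophages (AMs) of adult wild-type C57BL/6J mice, washed out of the lung and sorted. All 4 libraries came from this 1 genotype with no treatment named, and they formed 2 groups, SMAD4 immunoprecipitations (2 libraries) and inputs made without the antibody (2 libraries). How many mice stood behind a library is not given in the sources used here. Binding data hold no expression, so the labelled cell type could not be checked by marker genes, and a peak says nothing of whether the gene beside it was transcribed.

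A peak was taken for a gene when its summit, the position with the most stacked fragments, lay in the gene body or within 50 kb of a curated RefSeq transcription start site (TSS) of that gene. Of 16369 SMAD4 peaks in replicate 1, 22 met this rule at the 6 genes, and of 19015 peaks in replicate 2, 31 did, a mean of 26.5 ± 6.36 (SD, n = 2). A peak of replicate 1 and a peak of replicate 2 with 1 bp or more in common were joined into a shared region. The 6 genes held 18 of the 10964 shared regions of the genome. All coordinates are 1-based in mm10.

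BHLHE40 and BHLHE41 are repressors that bind E-boxes, short DNA elements of the form CANNTG, and in AMs they are known to uphold self-renewal and to keep genes of other macrophage types silent. MITF, TFEB and TFEC belong to the microphthalmia (MiT) family, whose members pair with each other and drive genes of lysosomes, autophagy and, in osteoclasts, bone resorption. TFEC is known mainly from macrophages and related myeloid cells. TCF4, also called E2-2, is an E protein and no MiT factor. It pairs with many tissue-specific helix-loop-helix proteins and is needed for plasmacytoid dendritic cells. SMAD4 is the common partner of the SMAD proteins that receptors of the TGFβ family activate, and AMs depend on TGFβ.

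The sequences below, read from RefSeq GRCm38 (the assembly behind mm10), show what lay under selected regions, 100 bp each side of the mean of both summits. All are on the plus strand, whereas Tfec and Bhlhe41 are transcribed from the minus strand. Capitals mark every match to the 13 short strings searched. They were TTGCNNAA for the C/EBP family, GAGGAAGT for PU.1, TGANTCA for the AP-1 family and TGTGGT for the RUNX family. For E-boxes they were CACGTG as bound by clock and MiT factors, CATGTG as bound by MiT factors, and CAGCTG as well as CAGGTG as bound by E proteins. For SMAD proteins they were GTCTGG and the palindrome GTCTAGAC. The rest were TTCNNNGAA for STAT proteins, GTGGGAA for the Notch effector RBPJ and AGGTCA for one arm of a nuclear receptor element. N is any base, both strands were searched, and none of the 32 matches in the 18 regions overlapped another. The windows were chosen as the strongest region of Tfec (chr6:16835773-16835973), the promoter region of Tfec (chr6:16898623-16898823), the region upstream of the first Mitf TSS (chr6:97805865-97806065), both strong intronic regions of Tfeb (chr17:47766792-47766992 and chr17:47784457-47784657), the region nearest the Bhlhe40 TSS (chr6:108658308-108658508) and the only region of Bhlhe41 (chr6:145830450-145830650). None overlapped an annotated exon. The second region of Tfec, stronger than most of those printed, held none of the 13 strings and is not printed.
Tfec intron: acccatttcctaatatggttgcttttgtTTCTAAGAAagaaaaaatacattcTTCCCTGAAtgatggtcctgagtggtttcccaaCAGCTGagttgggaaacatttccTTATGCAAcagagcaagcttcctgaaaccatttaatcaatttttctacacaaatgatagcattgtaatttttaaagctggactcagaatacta
Tfec promoter: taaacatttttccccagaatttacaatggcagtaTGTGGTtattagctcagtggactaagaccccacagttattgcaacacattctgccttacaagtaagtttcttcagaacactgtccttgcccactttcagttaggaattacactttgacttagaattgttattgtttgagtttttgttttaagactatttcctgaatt
Mitf upstream: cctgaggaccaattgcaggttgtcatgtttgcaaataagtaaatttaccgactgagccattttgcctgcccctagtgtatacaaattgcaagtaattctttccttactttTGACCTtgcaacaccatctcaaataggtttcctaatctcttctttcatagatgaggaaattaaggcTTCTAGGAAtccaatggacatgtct
Tfeb distal intron: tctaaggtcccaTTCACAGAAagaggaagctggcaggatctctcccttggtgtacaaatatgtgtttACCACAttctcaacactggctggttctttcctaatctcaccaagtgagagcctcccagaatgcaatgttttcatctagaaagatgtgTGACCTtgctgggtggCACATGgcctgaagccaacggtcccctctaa
Tfeb intron near the internal start: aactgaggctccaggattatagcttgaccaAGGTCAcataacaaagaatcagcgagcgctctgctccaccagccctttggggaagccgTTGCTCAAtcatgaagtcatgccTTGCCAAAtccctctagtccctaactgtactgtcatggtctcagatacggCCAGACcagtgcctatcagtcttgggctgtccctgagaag
Bhlhe40 upstream: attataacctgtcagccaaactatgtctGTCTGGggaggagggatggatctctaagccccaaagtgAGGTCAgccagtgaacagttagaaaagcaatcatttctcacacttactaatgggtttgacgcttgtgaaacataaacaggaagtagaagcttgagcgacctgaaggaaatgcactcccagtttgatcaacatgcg
Bhlhe41 downstream: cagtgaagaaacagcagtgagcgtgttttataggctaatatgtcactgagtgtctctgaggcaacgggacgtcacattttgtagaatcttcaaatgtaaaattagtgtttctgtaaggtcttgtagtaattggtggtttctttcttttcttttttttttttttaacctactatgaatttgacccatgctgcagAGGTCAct

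Each of the 6 genes had at least 1 shared region. Among 20923 protein-coding genes, 39.1% had one by the same rule. The rule searches more sequence at longer genes, and the share was 37.1% among 16640 genes with up to 110 kb searched, which include Bhlhe40 and Bhlhe41. It was 45.3% among 1226 genes with 110 to 130 kb, the class of Tfec, 49.4% among 1667 genes with 130 to 200 kb, the class of Tfeb, and 45.7% among 1390 genes with over 200 kb, the class of Mitf and Tcf4. With 6 genes, no share of their own is given. All 6 also had a shared region for which one of their own TSSs was the closest, compared with 21.5% of protein-coding genes. Over the 1142 kb searched at the 6 genes there were 1.58 shared regions per 100 kb. Over the sequence that the same rule searches at all protein-coding genes, each base counted once, there were 0.603, and over the whole genome 0.416. The regions were spread unevenly, with 6 at Mitf, 5 at Tfec, 3 at Tfeb, 2 at Bhlhe40 and 1 each at Bhlhe41 and Tcf4. Of the 18, 16 lay closest to a TSS of the gene itself. The other 2 lay closest to the start of a long noncoding RNA gene, 0610040F04Rik at Bhlhe40 and Gm36669 at Tfec. Chromosome 6 carries 4 of the genes, far apart.

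**Figure D1:**
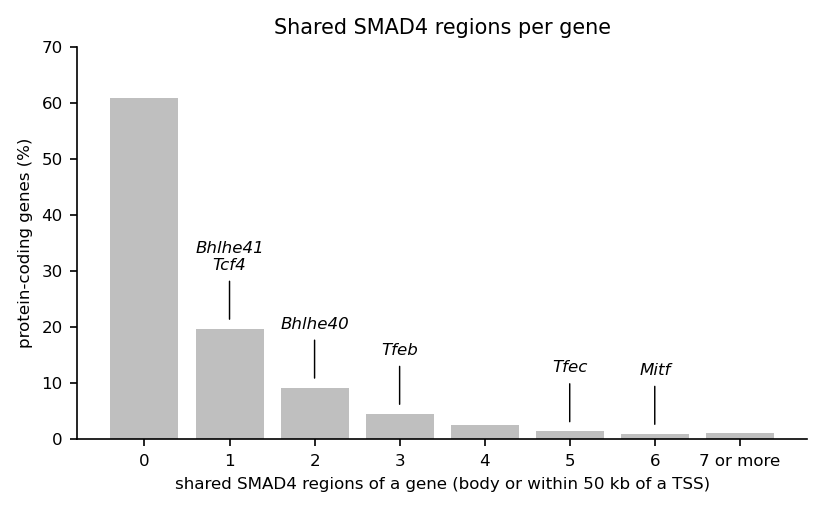
Bars give the percentage of 20923 protein-coding genes with each number of shared SMAD4 regions in the gene body or within 50 kb of a TSS, and the 6 genes are named above the bar they belong to. 60.9% of genes had none and 0.899% had 6, the number found at Mitf.

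At Tfec (chr6:16833381-16898441, minus strand), SMAD4 binding was the densest and the strongest of the 6 genes. Its 5 shared regions amounted to 4.35 per 100 kb searched, and 3.18% of the genes of its length class had at least as many. The strongest, at chr6:16835436-16836268, lay in intron 5 of 6, 62568 bp downstream of the TSS and close to the end of the gene, and its nearest TSS was that of Gm36669. It had a fold enrichment over the control level of 21.4 in replicate 1 and 31.6 in replicate 2. These folds rested on 65 fragments stacked at the summit in replicate 1 (exact Poisson 95% interval 50.2 to 82.8) and 69 in replicate 2 (53.7 to 87.3). They ranked at the 96.8th percentile of all shared regions in replicate 1 and the 96.5th in replicate 2, so that both replicates placed this region in the top 10%. Its window held C/EBP and STAT strings and a CAGCTG E-box.

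The second region of Tfec, at chr6:16883242-16884445, lay in intron 1, 14415 bp downstream of the TSS. Its fold was 18.5 in replicate 1, with 56 fragments (42.3 to 72.7), and 21.7 in replicate 2, with 47 fragments (34.5 to 62.5). It was the widest of the 18 regions at 1204 bp, and none of the 13 strings occurred within 100 bp of its summits. The third region, at chr6:16898384-16899052, was the only one of the 18 in a promoter, with its summits centred 282 bp upstream of the Tfec TSS. Its fold was 16.9 in replicate 1, with 51 fragments (38.0 to 67.1), and 19.0 in replicate 2, with 41 fragments (29.4 to 55.6). Its window held 1 RUNX string. In each replicate the counting intervals of these 3 regions overlapped, so their order was not resolved at this depth. Both remaining regions lay in intron 1 between them, with folds of 8.77 and 9.19 in replicate 1 and 6.77 and 10.8 in replicate 2.

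At Mitf (chr6:97807058-98021358, plus strand), which has 3 curated TSSs, 5 of the 6 shared regions lay within 22389 bp of the first TSS. The other lay deeper in the gene, 55376 bp upstream of the second TSS. Of the 6 regions, 5 lay in the long intron 1, and the strongest, at chr6:97805724-97806274, was intergenic, 1093 bp upstream of the first TSS. The strongest had a fold of 12.0 in replicate 1, with 36 fragments (25.2 to 49.8), and 15.8 in replicate 2, with 34 fragments (23.5 to 47.5). It stood at the 84.3rd percentile in replicate 1 and the 79.1st in replicate 2, and its window held a STAT string and the string AGGTCA. The next, at chr6:97815648-97816121 and 8801 bp inside the gene, had a fold of 5.97 in replicate 1 and 11.3 in replicate 2. Another, at chr6:97829195-97829659 and 22389 bp inside, had folds of 6.17 and 6.77. The other 3 had folds of 5.20 to 5.85 in replicate 1 and 4.96 to 7.67 in replicate 2, all under the median of all shared regions in both replicates (6.82 and 9.48). No shared region lay at either of the 2 internal TSSs, from which shorter MITF isoforms start. Replicate 2 had an unshared peak 4109 bp downstream of the last of them, at chr6:97995779-97996140, with a fold of 9.02 on 19 fragments (11.4 to 29.7). By count Mitf led the 6 genes, and 8.92% of genes of its length class had at least as many regions. Per 100 kb it had 2.11, close to Tfeb and Bhlhe40.

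Tfeb (chr17:47737037-47792416, plus strand) had 3 shared regions, all in the first intron of its longest transcript and away from its 2 upstream TSSs. TFEB is the family member best known for raising the production of lysosomes. The region at chr17:47766738-47767449 had a fold of 9.75 in replicate 1, with 29 fragments (19.4 to 41.6), and 13.1 in replicate 2, with 28 fragments (18.6 to 40.5). Its summits lay 7 bp apart, the smallest gap among the 18 regions, and its window held RUNX, STAT, AGGTCA and CATGTG matches. The region at chr17:47784154-47784830 was centred 1187 bp upstream of the internal TSS, from which the shortest curated transcript starts. Its fold was 7.46 in replicate 1, with 24 fragments (15.4 to 35.7), and 14.4 in replicate 2, with 31 fragments (21.1 to 44.0). It held 2 C/EBP strings within 15 bp of the mean summit. The weakest region, at chr17:47768696-47768998, had folds of 4.55 and 5.41, and was the only one of the 18 with an AP-1 string. At Tfeb 2.02 regions per 100 kb were found, and 18.4% of genes of its length class had at least as many.

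Bhlhe40 (chr6:108660629-108666925, plus strand) had 2 shared regions, neither of them strong. The one at chr6:108658307-108658627 was centred 2221 bp upstream of the TSS. Its fold was 4.87 in replicate 1, with 14 fragments (7.65 to 23.5), and 9.48 in replicate 2, with 20 fragments (12.2 to 30.9), and its window held the SMAD string GTCTGG and the string AGGTCA. The other, at chr6:108630833-108631280 and 29564 bp upstream, had a fold of 5.52 in replicate 1 and 5.44 in replicate 2, and held a CATGTG E-box. Both lay in introns of 0610040F04Rik, a noncoding gene transcribed from the opposite strand whose longest curated transcript starts inside Bhlhe40. The replicates differed most at this gene, with 2 peaks in replicate 1 and 7 in replicate 2. Of the 5 peaks without a partner, one lay at the promoter, 508 bp upstream of the TSS, with a fold of 8.12 on 17 fragments (9.90 to 27.2). Another lay 1107 bp upstream with a fold of 7.67 on 16 fragments (9.15 to 26.0). The sequence around these summits was 65.7% and 72.1% G or C, compared with a median of 43.8% at all shared regions. Around the remaining unshared summits of Bhlhe40 it was lower, at 44.8%, 52.7% and 54.2%. Whether base composition had a part in the absence of any of these peaks from replicate 1 was not tested. Of the genes in the same length class, 17.2% had at least 2 shared regions.

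At Bhlhe41 (chr6:145858243-145865420, minus strand) the only shared region, chr6:145830366-145830748, lay beyond the end of the gene, 34870 bp downstream of the TSS in intergenic sequence. Its fold was 5.52 in replicate 1, with 16 fragments (9.15 to 26.0), and 10.4 in replicate 2, with 22 fragments (13.8 to 33.3). The string AGGTCA occurred 96 bp from the mean summit. Replicate 1 had 2 further peaks, 17835 bp and 47495 bp upstream, with folds of 4.87 and 4.55, and the outer one was closest to the TSS of Sspn. No peak of either replicate lay in the body or the promoter of Bhlhe41.

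Tcf4 (chromosome 18, plus strand) is the longest of the 6 genes at 343 kb and had the least binding. A single peak was found in each replicate. They formed 1 shared region in intron 8 of 19, 229362 bp downstream of the nearest Tcf4 TSS. Its fold was 4.55 in replicate 1, with 13 fragments (6.92 to 22.2), and 4.96 in replicate 2, with 10 fragments (4.80 to 18.4). Its window held a CATGTG E-box. At 0.254 regions per 100 kb Tcf4 was below the 0.603 of the sequence searched at all protein-coding genes, and in its length class 45.7% of genes had at least 1.

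**Figure D2:**
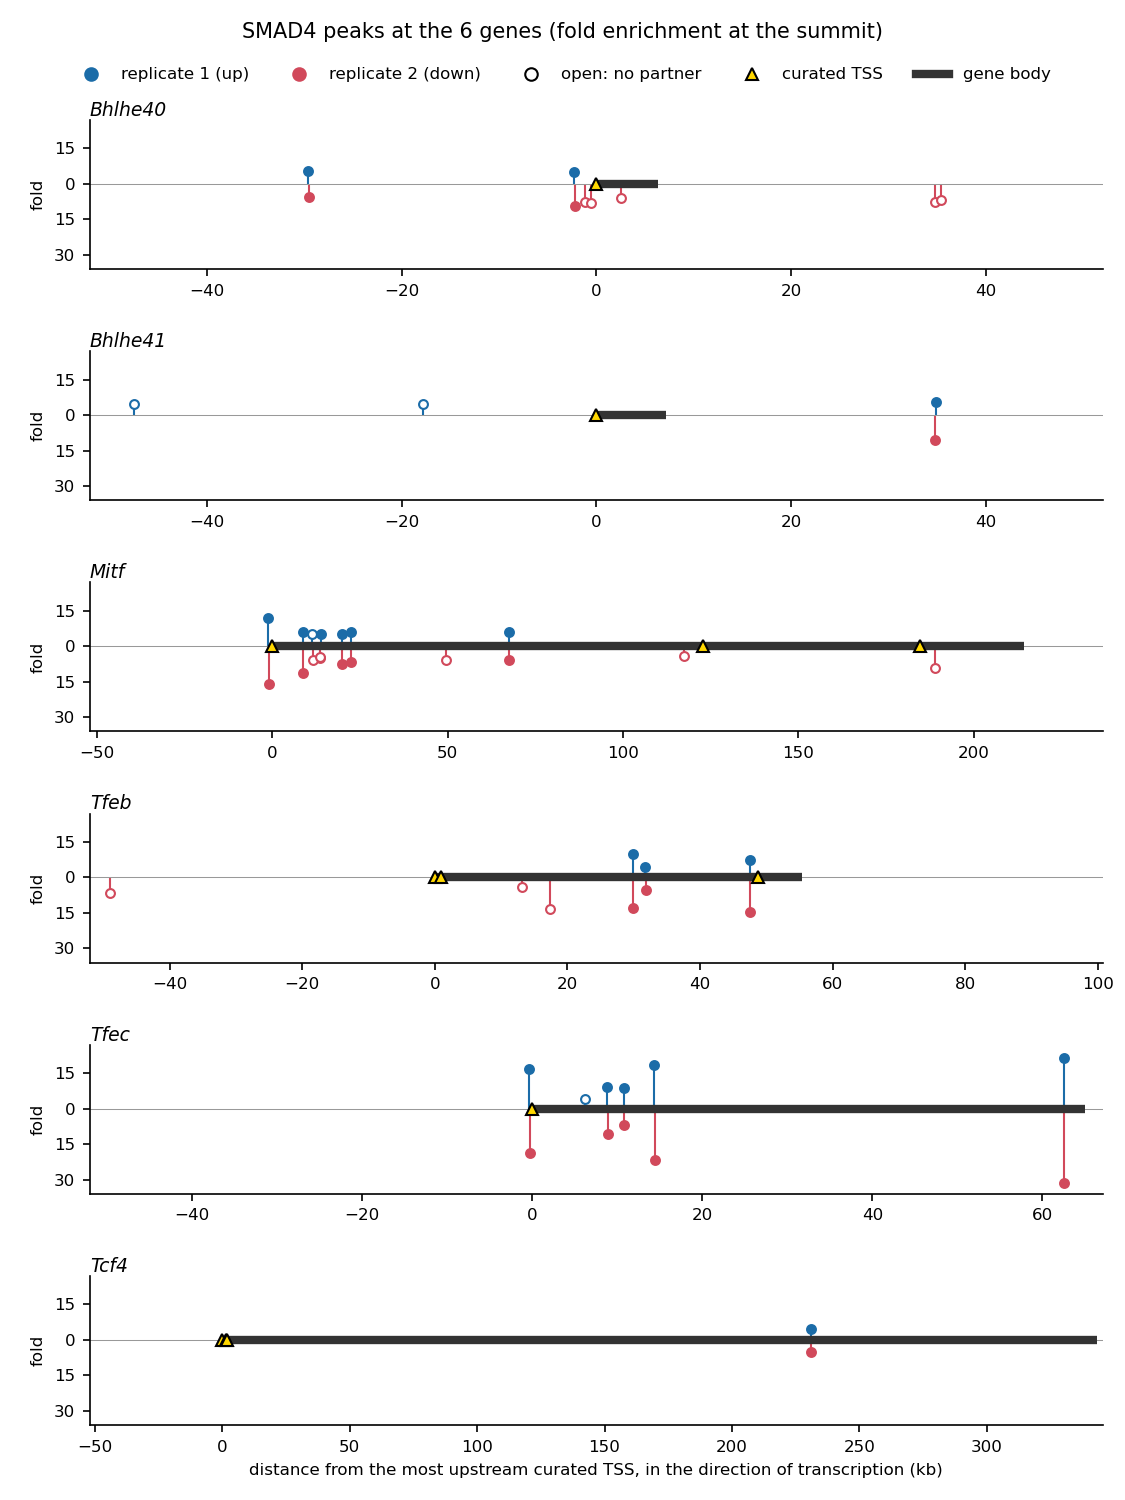
Each panel shows 1 gene, with the distance from its most upstream curated TSS in kb along the x axis in the direction of transcription and the fold enrichment at the summit along the y axis, replicate 1 upward and replicate 2 downward. Filled circles are peaks that overlap a peak of the other replicate and open circles are those that do not. The tall filled pairs are at Tfec and at the first TSS of Mitf, whereas the open circles around Bhlhe40 belong to replicate 2.

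Ordered by the percentile of their strongest region, averaged over the replicates, the genes ran from Tfec (96.7 ± 0.281, SD, n = 2) through Mitf (81.7 ± 3.65), Tfeb (72.6 ± 3.32), Bhlhe41 (43.3 ± 17.4) and Bhlhe40 (34.0 ± 21.6) to Tcf4 (9.27 ± 4.66). The strongest was picked from 6 regions at Mitf, 5 at Tfec, 3 at Tfeb, 2 at Bhlhe40 and 1 each at Bhlhe41 and Tcf4. Genes with more regions are favoured by such a ranking. Tfec stood above Mitf in both replicates, and the counting intervals of their strongest regions did not overlap in either one. Mitf and Tfeb kept their order in both replicates, but their fragment counts had overlapping intervals. Bhlhe41 also ranked above Bhlhe40 in both replicates, but the intervals of their fragment counts overlapped in both. In replicate 1 the other Bhlhe40 region had the same fold as the Bhlhe41 region, 5.52. Tcf4 ranked below Bhlhe40 in both replicates, with intervals of the fragment counts that overlapped in both. Only the strongest Tfec region was in the top 10% of all shared regions in both replicates, which is where 7.77% of all shared regions were. Below the 50th percentile in both replicates were 8 of the 18, compared with 40.5% of all, and 7 were above it in both, compared with 40.1% of all. As a description across regions that share the 2 libraries, Spearman's rho between the folds of the replicates was 0.849 (n = 18), and 0.785 without the 5 Tfec regions (n = 13).

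**Figure D3:**
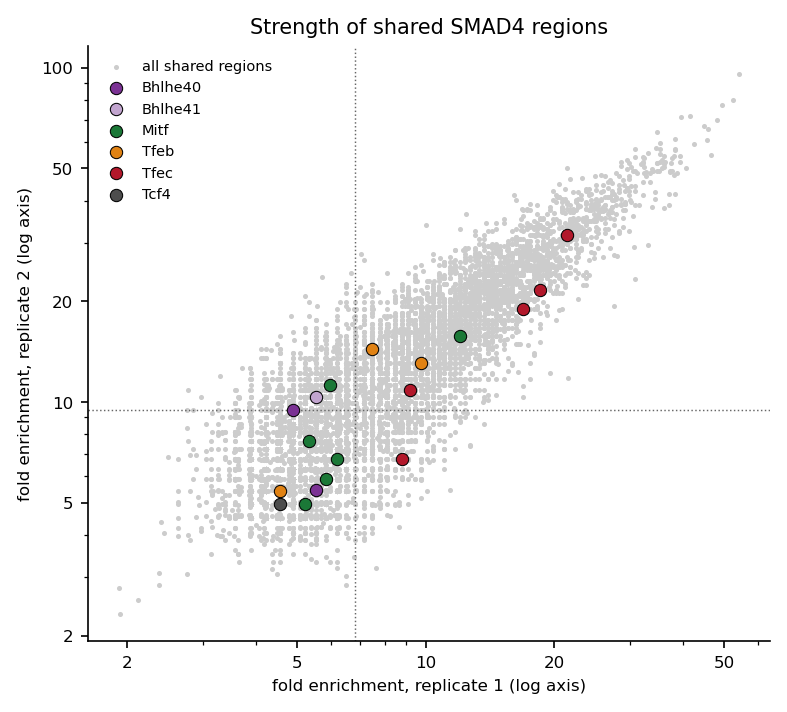
Each point is a shared SMAD4 region, with its fold enrichment in replicate 1 on the x axis and in replicate 2 on the y axis, both on log scales. Grey points are all 10964 regions, coloured points are the 18 of the 6 genes and dotted lines are the medians, 6.82 and 9.48. The Tfec points reach 21.4 and 31.6, and Tcf4 lies at 4.55 and 4.96.

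**Figure D4:**
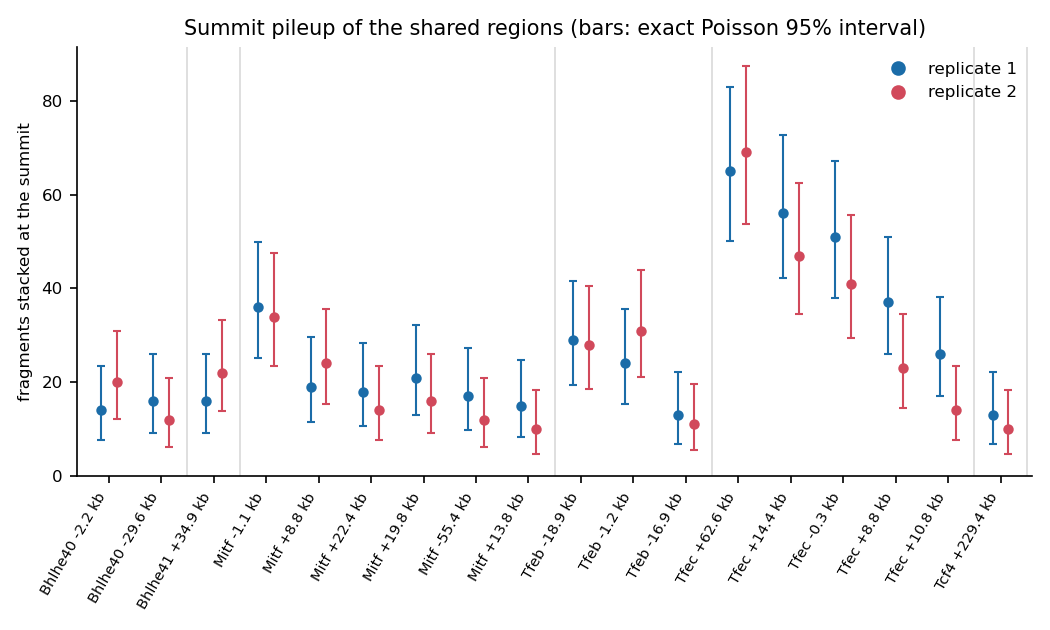
Fragments stacked at the summit of each of the 18 shared regions (y axis) in replicate 1 (blue) and replicate 2 (red), with exact Poisson 95% intervals that cover counting error only. Regions are labelled by gene and by distance in kb from the nearest TSS of that gene and ordered by mean percentile within each gene. Counts run from 13 to 65 in replicate 1 and from 10 to 69 in replicate 2.

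As a set, the 18 regions were of ordinary strength. Their median fold was 6.07 in replicate 1 and 9.93 in replicate 2, compared with 6.82 and 9.48 for all shared regions, and their median fragment counts equalled those of all regions (20 and 21). Their median width was 458 bp, compared with 440 bp. Their summits lay a median of 88 bp apart between the replicates, compared with 49 bp for all. The windows around them were poorer in G and C, with a median of 37.6% and a range of 29.9% to 58.2%. Introns held 15 of them (83.3%), 13 in the gene itself and 2 in 0610040F04Rik. Among all shared regions 49.3% were intronic, and among the 9136 shared regions that the rule gives to any protein-coding gene the share was 57.5%. A further 2 were intergenic (11.1%), compared with 40.5% of all shared regions and 30.8% of those the rule gives to any protein-coding gene. The last was in a promoter (5.56%), compared with 6.42% and 7.48%. The rule searches whole gene bodies, and these shares were not adjusted for their length. The sequence searched was 393 kb at Tcf4, 285 kb at Mitf, 149 kb at Tfeb and 115 kb at Tfec. At Bhlhe40 and Bhlhe41 it was 100 kb, the median of all protein-coding genes. Whether gene length had a part in the intronic share was not tested.

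The strings within 100 bp of the summits were mixed. The string AGGTCA, which RXR and PPARγ can bind as part of longer elements, occurred in 6 of the 18 regions (33.3%, exact 95% interval 13.3 to 59.0), and in 15.4% of all shared regions. It was found at Bhlhe40, Bhlhe41, Mitf and Tfeb. STAT strings occurred in 4, at Mitf, Tfeb and Tfec (22.2%, 6.41 to 47.6), and in 8.06% of all regions. The SMAD string GTCTGG also occurred in 4, at Bhlhe40, Tfeb and Tfec, and in 11.2% of all regions. C/EBP strings occurred in 5, at Mitf, Tfeb and Tfec (27.8%, 9.69 to 53.5), and in 40.9% of all. RUNX strings occurred in 2, at Tfeb and Tfec, compared with 26.4% of all regions. The AP-1 string occurred in 1, at Tfeb (5.56%, 0.141 to 27.3), compared with 12.3% of all regions. For RUNX, C/EBP and AP-1 the background share lay inside the interval of the 18 regions, and for AGGTCA, STAT and GTCTGG it did too. With 18 regions, none of these shares could be told from the background by counting error alone. The intervals also take the regions as independent, although 6 of the 18 were at Mitf and 5 at Tfec. PU.1, RBPJ, the palindrome GTCTAGAC and the E-boxes CACGTG and CAGGTG were not found in these 18 windows, which allows a share of up to 18.5% by the exact interval. In the same windows of all regions, the shares of these 5 strings were, in that order, 8.0%, 4.14%, 0.465%, 3.65% and 5.84%. With 200 bp each side, PU.1 and CAGGTG each occurred in 2 of the 18 regions. The shares of all regions given here are for 100 bp each side and do not apply to that wider window. At least 1 of the 4 E-boxes searched was in 6 regions (33.3%), close to the 32.9% of all. Different factors bind different E-boxes, so this pooled share does not describe sites for any 1 of the 6 proteins. Of these 6 regions, CATGTG was in 4, 1 each at Bhlhe40, Mitf, Tfeb and Tcf4. That is 22.2% of the 18, close to the 18.5% of all shared regions. CAGCTG was in 2, at Tfeb and Tfec, which is 11.1% of the 18 and close to the 9.21% of all.

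Peaks without a partner were few in replicate 1 and many in replicate 2. In replicate 1, 18 of 22 peaks at the 6 genes had a partner (81.8%, exact 95% interval 59.7 to 94.8), compared with 69.4% of all peaks. In replicate 2, 18 of 31 had one (58.1%, 39.1 to 75.5), compared with 59.2% of all. The 4 unshared peaks of replicate 1 were weak, with folds of 4.22 to 5.20 on 12 to 15 fragments. The 13 of replicate 2 had folds of 4.06 to 13.5 on 8 to 29 fragments. The strongest of them was in the first intron of Tfeb, at chr17:47754137-47754633, 16439 bp downstream of the nearest upstream TSS. It had 29 fragments (19.4 to 41.6) and stood at the 83.8th percentile of all peaks of replicate 2. Its fold exceeded those of 13 of the 18 shared regions in the same replicate, the exceptions being 3 of Tfec, 1 of Mitf and 1 of Tfeb. At Mitf, an unshared peak of each replicate lay in intron 1 at chr6:97818204-97818353 and chr6:97818439-97818569, next to each other without overlap.

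The limit of 50 kb from a TSS left out nearby binding. At Bhlhe40 a stronger shared region lay just outside, 62752 bp downstream of the TSS and closest to Arl8b, with folds of 14.3 and 16.7, and another 62191 bp upstream had folds of 9.55 and 9.48. At Tfec, 3 shared regions stood close together 63413 to 67068 bp upstream, still closest to the Tfec TSS, with folds of 5.20 to 7.80 in replicate 1 and 8.57 to 11.3 in replicate 2. The outermost regions inside the limit, gene bodies aside, were that of Bhlhe41 at 34870 bp and that of Bhlhe40 at 29564 bp.

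The other genes of these pathways were taken as 5 lists of 29 genes, of which 18 had a shared region by the same rule and 13 had one closest to their own TSS. Among the remaining MiT and E protein genes, 2 of 3 had one. Tcf3, an E protein gene, was bound at its promoter with folds of 7.47 and 9.02, and Tcf12 in an intron with 8.77 and 15.8. Tfe3, the MiT member outside the 6, had 1 peak in each replicate, and these did not overlap. Of the 4 genes for ID proteins, which block E proteins by pairing with them, Id1 and Id3 had shared regions and Id2 and Id4 had no peak in either replicate. The Id1 region lay 5517 bp downstream of its TSS, with folds of 14.6 and 32.9. Those of Id3 lay closer to other genes. Of the 10 genes that hold MiT factors at the lysosome or release them, 4 had a shared region (Fnip1, Fnip2, Rragc and Rptor). That is close to the 39.1% of all protein-coding genes with one. Those of Fnip1 lay closer to other genes. Flcn, Rraga, Rragb, Rragd, Mtor and Lamtor1 had no peak in either replicate.

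All 6 of the MiT targets searched had a shared region, but at Acp5, Sqstm1 and Mcoln1 each was closest to the TSS of another gene. Atp6v0d2, which encodes a subunit of the proton pump of lysosomes and osteoclasts, had 7 shared regions. The strongest of those closest to its own TSS lay in an intron 8314 bp downstream of the TSS, with folds of 23.4 in replicate 1 and 32.9 in replicate 2, both above those of the strongest Tfec region. Ctsk, the gene for the collagenase cathepsin K, had 1 region 395 bp downstream of its TSS with folds of 9.10 and 14.4. Gpnmb, a gene for a glycoprotein of lysosomes and melanosomes, had 4, and the strongest of those closest to its own TSS lay 5084 bp upstream with folds of 6.86 and 15.1. Of the 6 clock genes, 4 had a shared region closest to their own TSS. These were Per1, Per2, Cry1 and Cry2, whose proteins, like BHLHE40 and BHLHE41, repress the clock activators. The strongest region of Per2, in an intron, had folds of 24.4 and 40.2. Of the activators themselves, Clock had 1 peak in replicate 1 and none in replicate 2, and Arntl had none in either. These counts are to be read against the 39.1% of protein-coding genes with a shared region and the 21.5% with one closest to their own TSS.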

How the data were processed

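SMAD4 binding was measured in 2 HT-ChIPmentation libraries of mouse AMs, and 2 inputs served as controls. Of the inputs, only the control level behind each peak was used. Replicate numbers follow accession order and pair nothing.

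The authors trimmed adapters with Cutadapt, aligned read pairs to mm10 with Bowtie2, removed duplicates and poorly mapped pairs with PICARD and samtools, and called peaks with MACS3 in each library against input at a q-value limit of 0.05. Each deposited peak carries a fold ratio of summit pileup over control level, the −log10 of a p-value and of a q-value, and a score. The score that the authors deposited follows from the q-value and was not used. Tn5 prefers some sequences and fragments were not counted by molecular identifiers, so intervals cover counting error only.

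Fold is (pileup + 1) over (control level + 1), with a pseudocount of 1, and p is the Poisson tail of the same numbers, so both were solved for a whole pileup. The largest misfit of −log10 p was 0.000516 in replicate 1 and 0.000540 in replicate 2. The step was tested on simulated data. Sequencing totals were not used here. The median peak rested on 17 fragments in replicate 1 and 14 in replicate 2, and the background control level was 2.08 and 1.22 fragments, so folds were ranked within a library and not compared between libraries. A percentile is the rank of a fold as a percentage of the number ranked, with tied folds given their average rank. Pileups have exact Poisson and shares exact Clopper-Pearson 95% intervals.

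Curated RefSeq models covered 45657 transcripts from 26089 genes, 20923 of them protein-coding. The position of a region is the mean of both summits. It was assigned in order to a promoter (1000 bp upstream to 100 bp downstream of a TSS), a transcription end, an exon, an intron or intergenic sequence. No hypothesis test was made, since there is 1 condition. The 6 genes, lists and strings were chosen with earlier results of these data known. Of the regions of a gene, the 3 with the highest mean percentile were to be given in full. Other genes are named as a gene with a closer TSS or as members of the lists. Alternatives changed the overlap, peak threshold, distance, assignment, gene models, string window and replicates. Rankings by q and by pileup, and the alternatives for the lists, were added after the data were seen. Python 3.11.15, numpy 2.4.6, pandas 2.3.3, scipy 1.17.1 and pysam 0.24.0 were used.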

Additional observations from a re-analysis of the deposited data

How the results depend on the processing

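The 18 shared regions fell to 11 when the summits of both replicates had to lie within 100 bp, and Mitf then had 2. The peaks of a single replicate numbered 22 to 31, with 31 without replicate 1. Shared regions were within 1.5 times of 18 under the other overlap, threshold, distance, assignment and gene model settings. The number of the 6 genes with a shared region stayed within 1.5 times of 6 under all settings, but Tcf4 had 0 with a reciprocal overlap of 50% or a minimum fold of 5, and Bhlhe41 had 0 with a limit of 10 kb. Bhlhe40 had 1 under these 3 settings and 5 with a limit of 100 kb, and Tfec had 9 with a limit of 100 kb. String counts depend on the window. With 50 bp each side, AGGTCA and C/EBP were in 3 regions each, STAT in 2, and GTCTGG, RUNX and CAGCTG in 1 each. With 200 bp each side, RUNX was in 4 regions and PU.1, CAGGTG and AP-1 in 2 each. PU.1 was in 1 around the summits of replicate 1 alone, and CAGCTG in 1 around those of replicate 2 alone. No paired analysis was possible because the labels carry no shared replicate numbers and no test was made. With 2 libraries and 10 to 69 fragments at a summit, weak peaks seen in 1 replicate cannot be told apart from peaks missed in the other, and a gene with no peak may hold binding below the limit of detection.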
